A study of Mus musculus with 18 samples.

Results

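The 10 genes described here encode cytokines that start NF-kB signalling, inhibitors that NF-kB and STAT3 induce against themselves, the subunits of the non-canonical NF-kB pathway, and endothelial adhesion molecules. They are Tnf, Il1b and Il6, then Nfkbia, Tnfaip3 and Socs3, then Nfkb2 and Relb, and last Icam1 and Vcam1. A gene was taken where a probe set carried its symbol alone, the brightest one by its average over the 18 arrays where there were several, so that the 10 genes were a small part of the 19938 genes measured. Visceral fat, a white adipose tissue (WAT), was taken from male C57BL/6N wildtype mice aged 5 to 6 months, and each of the 18 mice gave 1 Affymetrix Mouse Gene 1.0 ST array. Con, SD mice (n = 7) had been mock-injected with citrate buffer and ate standard chow with placebo. STZ, SD mice (n = 6) ate the same chow and had received streptozotocin (STZ), a toxin of pancreatic beta cells that gives insulin-deficient diabetes, at 65 mg/kg intraperitoneally on each of 5 consecutive days at 10 to 16 weeks of age. STZ, BEZ mice (n = 5) received STZ in the same way and then bezafibrate (BEZ), a lipid-lowering drug that activates all PPAR receptors, in the chow at 0.25% or 0.5% by weight for 8 weeks from 2 weeks after STZ. The labels do not say which mouse ate which BEZ chow, and the study's methods give a somewhat different STZ dose, a single BEZ concentration and untreated controls.

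In resting cells IkB proteins such as the product of Nfkbia hold NF-kB dimers in the cytoplasm. TNF and interleukin-1 receptors activate the IKK kinases, IkB is degraded, and the freed dimers move to the nucleus, where they induce cytokines, adhesion molecules and, as a negative feedback, Nfkbia and Tnfaip3 themselves. A slower branch processes the p100 protein of Nfkb2 to p52, which pairs with RelB. Interleukin-6 acts through JAK kinases and STAT3, which induces the inhibitor Socs3. In fat these genes are used by macrophages, endothelial cells, mesothelium and adipocytes alike, and a whole-tissue array cannot tell fewer cells of a type from less RNA per cell.

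The promoter of Nfkbia is printed because this gene was the only member that passed the test between STZ, SD and Con, SD. Promoters are those of RefSeq (GRCm38.p6), from 250 bases before to 50 bases after the annotated start, and 8 of the 10 genes have 1 or more entries, 11 in all. They were searched on both strands for the kappa-B consensus, the sequence that NF-kB dimers bind, and for TTCNNNGAA, the palindrome that STAT proteins bind. Bases in capitals mark the match. The 250 bases before the start of Nfkbia are chr12:55492648-55492897 on the minus strand, with a match to the kappa-B consensus at positions -29 to -20 from the start.
Nfkbia: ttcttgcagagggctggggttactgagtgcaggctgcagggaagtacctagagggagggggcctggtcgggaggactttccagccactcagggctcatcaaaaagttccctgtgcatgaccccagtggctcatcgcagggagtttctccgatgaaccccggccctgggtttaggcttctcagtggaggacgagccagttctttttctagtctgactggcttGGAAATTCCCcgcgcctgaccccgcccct
The other members with a kappa-B match were Il6, Tnfaip3 and Nfkb2, of which the match nearest to the start of the first annotated promoter is shown with 10 bases on either side. They lie at chr5:30013060-30013089 (plus strand), chr10:19015403-19015432 (minus strand) and chr19:46304716-46304745 (plus strand).
Il6: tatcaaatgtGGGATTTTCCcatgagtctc
Tnfaip3: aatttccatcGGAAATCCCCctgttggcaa
Nfkb2: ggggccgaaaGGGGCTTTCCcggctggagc
Tnfaip3 had a further match at -125 to -116, and a pair of overlapping matches lay at -39 to -29 of Nfkb2, whose later promoters held matches too. For comparison with the STAT3 branch, the TTCNNNGAA matches of Socs3 at chr11:117969502-117969530 (minus strand) and of Icam1 at chr9:21015888-21015916 (plus strand) are shown in the same way, while Nfkb2 held one as well.
Socs3: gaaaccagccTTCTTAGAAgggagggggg
Icam1: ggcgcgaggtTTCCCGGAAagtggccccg
A kappa-B match was found in 4.51% of all 32851 promoters and TTCNNNGAA in 8.3%. No match was found in the windows of Tnf and Il1b, which says only that these letters are not in these windows.

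Array medians lay between 6.76 and 6.87 in all groups. White adipocyte markers (11 of 12 listed genes measured) averaged 11.64 to 12.39 in Con, SD, against 10.24 to 12.45 in STZ, SD and 12.43 to 12.50 in STZ, BEZ. They were bright on all arrays but moved between groups: all 11 were below 0 in STZ, SD vs. Con, SD (median difference -0.47, 3 at an unadjusted p under 0.05) and all 11 were above 0 in STZ, BEZ vs. STZ, SD (median 0.73, 10 at an unadjusted p under 0.05), with 0 called in limma in either. Genes of other abdominal organs were high on some of them. The mean of 13 pancreas genes was 12.65 in STZ, SD replicate 6 and 8.44 to 10.76 in STZ, BEZ replicates 1 to 4, against 5.75 to 6.16 on all others. The mean of 14 genes of epididymis and testis was 11.37 and 10.52 in Con, SD replicates 5 and 3 and 11.01 in STZ, SD replicate 3, against 5.75 to 8.59 elsewhere. B cell markers averaged 8.98 in STZ, SD replicate 6 and 7.28 in STZ, BEZ replicate 4, against 5.62 to 6.42 elsewhere.

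The first question was whether diabetes changed the 10 genes in fat. Nfkbia, which encodes the inhibitor IkB-alpha, rose in STZ, SD, and it was the only 1 of 10 genes that passed an adjusted p under 0.10 in the limma fit, compared with 10.3% of all genes measured (5.82% higher and 4.52% lower). At an unadjusted p under 0.05 there were 4 of 10 genes, compared with 20.3% of all genes, and SAM, the permutation-based test of the study, called the same number as limma. The median difference of the 10 genes was 0.09 on the log2 scale, beside -0.03 for all genes. In the second comparison, STZ, BEZ vs. STZ, SD, 0 of the 10 genes passed in limma, 0 passed in SAM and 0 had an unadjusted p under 0.05, compared with 0.707% of all genes called in limma (0.682% higher and 0.0251% lower) and 10.2% at the unadjusted p, and the median difference was -0.01. STZ, BEZ vs. Con, SD gave 0 calls in limma, 1 in SAM and 1 gene at an unadjusted p under 0.05, beside 5.95% of all genes called in limma (4.57% higher and 1.38% lower) and 18.3% at the unadjusted p. The first and second comparisons share the STZ, SD arrays, so that a high value in STZ, SD enters them with opposite signs.

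**Figure D1:**
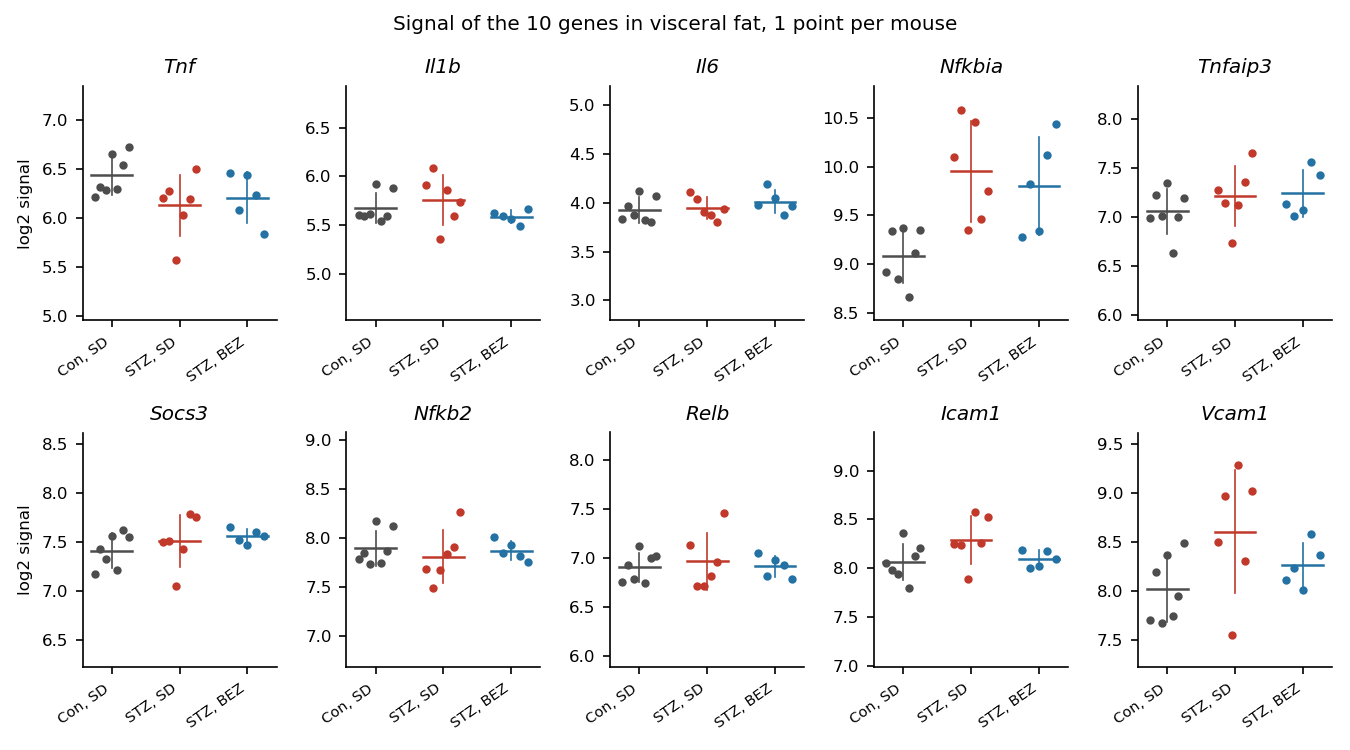
Log2 signal (vertical axis) of each of the 10 genes for Con, SD (grey, n = 7), for STZ, SD (red, n = 6) and for STZ, BEZ (blue, n = 5), with 1 point per mouse, the mean as a horizontal line and the SD as a vertical line (the vertical axes start at different values, none at 0). In Nfkbia 5 of 6 STZ, SD points lie above all those of Con, SD, and in Vcam1 4 of 6 do. The lowest points of Vcam1 and Tnf in STZ, SD are both replicate 3.

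Nfkbia was a bright gene, at percentile 89.5 of the mean signals of all genes. Its log2 signal was lowest at 8.67, with a median of 9.12 and a highest value of 9.37, in Con, SD. In STZ, SD it was 10.10, 10.58, 9.35, 10.46, 9.46 and 9.75 in replicates 1 to 6. Thus 5 of 6 STZ, SD arrays lay above all Con, SD arrays, and replicate 3 fell within the range of Con, SD. The difference was 0.86 ± 0.23 (SE), a 1.82-fold rise with a 95% interval of 0.39 to 1.34 on the log2 scale and an adjusted p of 0.0347. It kept its call with each array left out in turn (0.73 to 0.98, adjusted p 0.0147 to 0.0908) and under all other settings tried (adjusted p 0.015 to 0.0723). In STZ, BEZ the signal was 9.28, 9.82, 9.34, 10.12 and 10.44 in replicates 1 to 5, which is a wide spread from the range of Con, SD to the upper values of STZ, SD. STZ, BEZ differed from STZ, SD by -0.15 ± 0.25 (95% interval -0.67 to 0.37, adjusted p = 0.898). It lay above Con, SD by 0.71 ± 0.24, with 5 of 5 arrays above the Con, SD mean and 3 of 5 above all Con, SD arrays, but an adjusted p of 0.116 missed the threshold. This last call turned on the setting and on single arrays: the adjusted p ranged from 0.0864 to 0.33 with each array left out, passing without STZ, SD replicates 2, 3 or 6 (0.097, 0.0864 and 0.0949) or STZ, BEZ replicates 1 or 3 (0.095 and 0.0928), and from 0.025 to 0.201 under other settings.

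**Figure D2:**
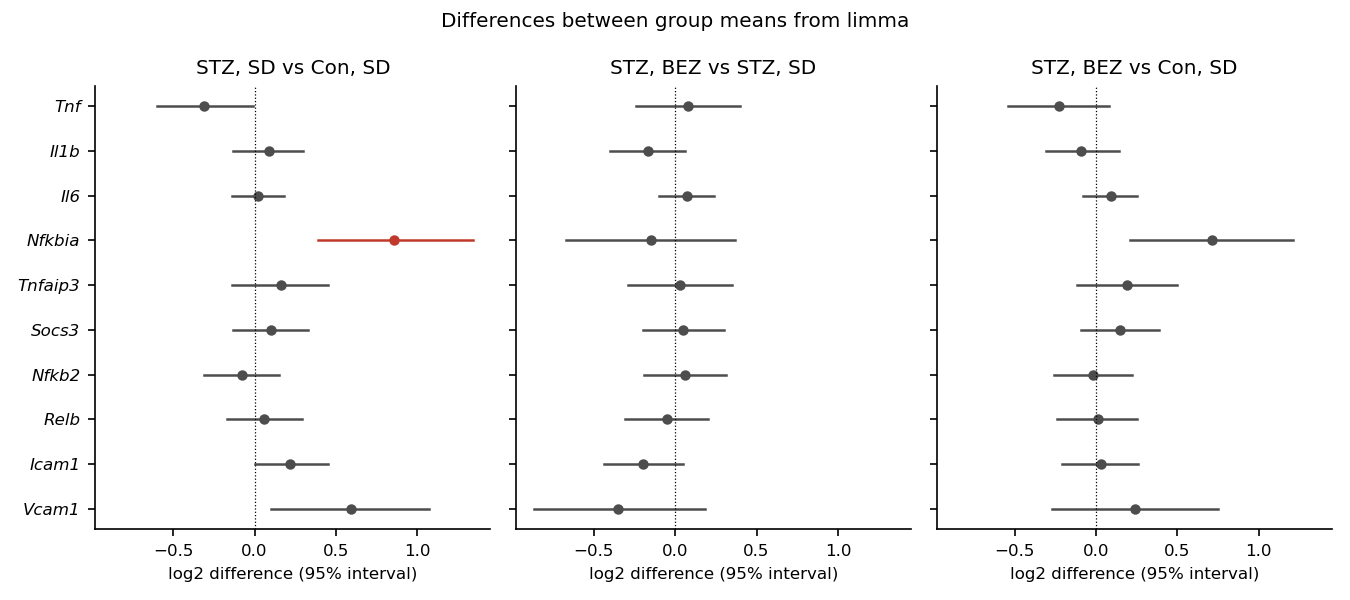
Difference in mean log2 signal (horizontal axis, points) with the 95% interval from limma (lines) for the 10 genes in the 3 comparisons; red marks an adjusted p under 0.10 over all genes. Only the point of Nfkbia in STZ, SD vs. Con, SD (0.86) is red, and in STZ, BEZ vs. STZ, SD each of the 10 intervals includes 0.

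The other inhibitors did not pass the test. Tnfaip3 encodes A20, a ubiquitin-editing enzyme that stops signalling from the TNF receptor. Its signal ranged from 6.63 to 7.35 (median 7.01) in Con, SD and from 6.73 to 7.65 (median 7.21) in STZ, SD, and was 7.13, 7.01, 7.07, 7.56 and 7.43 in STZ, BEZ. The groups overlapped widely, with differences of 0.16 ± 0.14 (adjusted p = 0.581) for STZ, SD vs. Con, SD and 0.03 ± 0.15 (adjusted p = 0.976) for STZ, BEZ vs. STZ, SD. Its lowest values were in Con, SD replicate 5 and STZ, SD replicate 3, the arrays with the highest epididymis and testis signals. Con, SD replicate 3, also high in those genes (10.52), was at the Con, SD median (7.01). The part of those cells in the result was not tested. Socs3, the STAT3-induced inhibitor of JAK kinases, ranged from 7.17 to 7.62 (median 7.43) in Con, SD and from 7.05 to 7.79 (median 7.51) in STZ, SD, and was 7.65, 7.52, 7.47, 7.60 and 7.56 in STZ, BEZ. STZ, BEZ was therefore narrow (SD 0.07) and lay within the range of STZ, SD. The differences of Socs3 were 0.10 (95% interval -0.13 to 0.33, adjusted p = 0.66) and 0.05 (-0.20 to 0.30, adjusted p = 0.937). A second, dimmer probe set of Socs3 averaged 5.81 ± 0.19 (SD) in Con, SD, with 5.82 ± 0.12 in STZ, SD and 5.87 ± 0.08 in STZ, BEZ.

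The cytokines were dim and did not pass the test. Tnf encodes the cytokine that macrophages release first in inflammation, and its mean signal was at percentile 33.3 of all genes. It ranged from 6.21 to 6.73 (median 6.32) in Con, SD and from 5.57 to 6.50 (median 6.19) in STZ, SD, and was 6.46, 6.08, 6.44, 6.23 and 5.83 in STZ, BEZ. In STZ, SD, 4 of 6 arrays lay below all Con, SD arrays, replicate 3 lowest. The highest was replicate 6, the array with high B cell markers and high pancreas genes. The difference was -0.31 ± 0.14 with a 95% interval of -0.60 to -0.01 and an adjusted p of 0.226. Without STZ, SD replicate 6 it was -0.38 with an adjusted p of 0.0979. Over all arrays left out in turn it ranged from -0.38 to -0.19, with adjusted p of 0.0979 to 0.384. With the pancreas and epididymis means of each array as covariates, chosen after seeing the data, it was -0.48 (adjusted p = 0.00877), and over all alternatives the adjusted p reached 0.401. STZ, BEZ differed by 0.08 ± 0.15 from STZ, SD (adjusted p = 0.919) and by -0.23 ± 0.15 from Con, SD (adjusted p = 0.442), the last of which was -0.61 with the same covariates (adjusted p = 0.00823). The pancreas mean was 8.44 to 10.76 in STZ, BEZ replicates 1 to 4 and 5.80 to 6.16 in Con, SD. This covariate can thus hardly be told apart from the group in that comparison.

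Il1b, the inflammasome-processed cytokine of the interleukin-1 family, ranged from 5.54 to 5.92 (median 5.60) in Con, SD and from 5.36 to 6.09 (median 5.80) in STZ, SD, and was 5.63, 5.59, 5.56, 5.49 and 5.67 in STZ, BEZ. The STZ, SD arrays lay on either side of Con, SD, with replicate 2 at the top and replicate 3 at the bottom. The differences were 0.09 (95% interval -0.13 to 0.30, adjusted p = 0.693) and, for STZ, BEZ vs. STZ, SD, -0.17 (-0.40 to 0.06, adjusted p = 0.657). Il6, the activator of STAT3, was at percentile 0.933 of the mean signals, near the bottom of the array. It ranged from 3.80 to 4.12 in Con, SD and from 3.80 to 4.11 in STZ, SD, and was 3.98, 4.19, 4.05, 3.87 and 3.97 in STZ, BEZ. The difference between STZ, SD and Con, SD was 0.02 (95% interval -0.14 to 0.18, adjusted p = 0.925). The deposited signals come without a background level, so that such a low value does not say whether Il6 RNA was present.

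The non-canonical subunits did not pass the test either. Nfkb2, the precursor of p52, ranged from 7.73 to 8.17 (median 7.85) in Con, SD and from 7.49 to 8.27 (median 7.76) in STZ, SD, and was 8.01, 7.85, 7.93, 7.82 and 7.75 in STZ, BEZ. Relb, its partner, ranged from 6.74 to 7.12 (median 6.93) in Con, SD and from 6.71 to 7.46 (median 6.89) in STZ, SD, and was 7.05, 6.82, 6.98, 6.93 and 6.79 in STZ, BEZ. For both genes the highest of all 18 arrays was STZ, SD replicate 6. Nfkb2 differed by -0.08 ± 0.11 (adjusted p = 0.732) and Relb by 0.06 ± 0.11 (adjusted p = 0.818) between STZ, SD and Con, SD, and without replicate 6 Relb differed by -0.04. The 95% intervals were -0.31 to 0.15 for Nfkb2 and -0.17 to 0.29 for Relb. STZ, BEZ differed from STZ, SD by 0.06 ± 0.12 in Nfkb2 (adjusted p = 0.918) and by -0.05 ± 0.12 in Relb (adjusted p = 0.935). Relb differed by 0.01 between STZ, BEZ and Con, SD (adjusted p = 0.981), and by -0.30 with the pancreas and epididymis covariates (adjusted p = 0.05). In that comparison too the pancreas covariate can hardly be told apart from the group.

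The adhesion molecules, which hold leukocytes on activated endothelium, were on average higher in STZ, SD but missed the threshold. Vcam1, the ligand of the integrin alpha-4 beta-1, ranged from 7.67 to 8.49 (median 7.95) in Con, SD. In STZ, SD it was 8.50, 8.97, 7.55, 9.29, 8.30 and 9.02 in replicates 1 to 6, and in STZ, BEZ it was 8.11, 8.23, 8.01, 8.58 and 8.37. Thus 4 of 6 STZ, SD arrays lay above all Con, SD arrays, while replicate 3 was the lowest of all 18 arrays. Replicate 3 is the STZ, SD array with a high mean of epididymis and testis genes (11.01). Con, SD replicates 3 and 5 were also high in those genes (10.52 and 11.37), with Vcam1 at 7.67 and 7.74. The difference was 0.59 ± 0.23, or 1.5-fold, with a 95% interval of 0.10 to 1.07 and an adjusted p of 0.146. Without STZ, SD replicate 3 alone, with the Con, SD arrays high in those genes kept, it was 0.80 with an adjusted p of 0.0149. Over all arrays left out in turn it was 0.45 to 0.80, and the adjusted p ranged from 0.0149 to 0.316. Under the other settings the difference ranged from 0.35 to 0.67. STZ, BEZ lay below STZ, SD by 0.35 on average, with 5 of 5 arrays below the STZ, SD mean but 0 of 5 below all STZ, SD arrays. The interval of that difference included 0 (-0.35 ± 0.25, 95% interval -0.87 to 0.18, adjusted p = 0.704).

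Icam1, the ligand of the leukocyte integrins LFA-1 and Mac-1, ranged from 7.80 to 8.36 (median 8.05) in Con, SD and from 7.89 to 8.58 (median 8.26) in STZ, SD, and was 8.19, 8.00, 8.02, 8.18 and 8.09 in STZ, BEZ. In STZ, SD 2 arrays, replicates 4 and 6, exceeded all Con, SD arrays. The difference was 0.22 ± 0.11 with an adjusted p of 0.243, and without STZ, SD replicate 3 it was 0.30 with an adjusted p of 0.0584. Over all arrays left out in turn its adjusted p ranged from 0.0584 to 0.461. Under the other settings the difference ranged from 0.12 to 0.25, and the adjusted p reached 0.443 with the pancreas and epididymis covariates. STZ, BEZ was below STZ, SD by 0.20 on average, again with 5 of 5 arrays below the STZ, SD mean (-0.20, 95% interval -0.44 to 0.05, adjusted p = 0.614). That difference was -0.31 with the pancreas and epididymis covariates (adjusted p = 0.0766, beside 0.355 to 0.828 with arrays left out in turn). Endothelial cell markers, 12 genes, averaged 8.75 to 9.82 in Con, SD, against 8.51 to 9.70 in STZ, SD and 9.54 to 9.66 in STZ, BEZ. Of these, 0 of 12 were called in any of the 3 comparisons (0, 1 and 0 at an unadjusted p under 0.05). In STZ, SD vs. Con, SD 5 of 12 were above 0 (median -0.07). In STZ, BEZ 11 of 12 were above STZ, SD (median 0.27) and 12 of 12 above Con, SD (median 0.25). Mesothelial markers, 9 genes, averaged 8.04 to 9.13, 8.23 to 9.63 and 8.48 to 9.20 in the same groups. Of the mesothelial genes 8 of 9 were above 0 in STZ, SD vs. Con, SD (median 0.28) and 6 of 9 in each of the other comparisons (medians 0.05 and 0.38), with 0 called in limma and 2, 0 and 3 at an unadjusted p under 0.05. The part of endothelium, mesothelium, or epididymis and testis in the values of Icam1 and Vcam1 was not tested.

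The members also varied together from mouse to mouse within groups. The following correlations are Pearson's r over 18 arrays after the mean of each group was taken away, and they are descriptions, since the values of an array share its tissue make-up and its normalization. Nfkb2 and Relb had an r of 0.84. Icam1 and Vcam1 had an r of 0.82. Nfkbia followed Vcam1 (0.76) and Il1b (0.68), while its r was -0.16 with Nfkb2, -0.09 with Relb and 0.03 with Tnf. Tnf in turn had an r of 0.75 with both Relb and Socs3. Il6, the dimmest member, had its highest r with Il1b (0.62) and values of 0.08 to 0.30 with the remaining 8 genes.

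**Figure D3:**
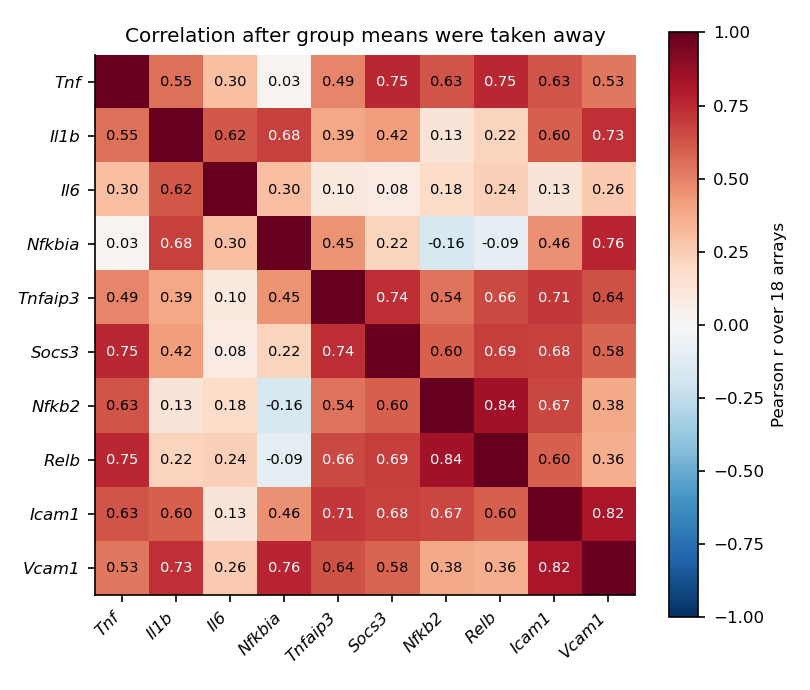
Pearson's r (colour scale from -1 to 1, values printed) between the 10 genes over the 18 arrays after group means were taken away. Nfkb2 with Relb (0.84) and Icam1 with Vcam1 (0.82) are the pairs of highest r, and the row of Nfkbia is near 0 for Tnf, Nfkb2 and Relb.

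Each member was also set beside the mean of marker and other gene lists. Relb had an r of 0.75 and Nfkb2 of 0.63 with B cell markers, and of 0.72 and 0.70 with pancreas genes. Tnf had 0.58 and 0.59 with these lists. STZ, SD replicate 6 was the highest array for both lists (8.98 and 12.65) and for T and NK cell markers (7.52). It was the lowest for white adipocyte markers (10.24). All members had a negative r with the genes of epididymis and testis, from -0.38 for Nfkb2 to -0.77 for Tnfaip3. Il1b, Nfkbia and Vcam1 had 0.84, 0.83 and 0.80 with neutrophil markers. Those neutrophil markers averaged 5.27 to 5.93 over all arrays, below the array medians. In STZ, SD vs. Con, SD 4 of the 10 were above 0 and 6 below (median -0.05), 3 had an unadjusted p under 0.05, and 1, Elane, was called higher (0.59, adjusted p = 0.0826). Nfkbia had an r of 0.72 with 14 genes that glucocorticoids induce, a list without Nfkbia that was put beside it because Nfkbia itself is a known glucocorticoid target. That list had 3 of 14 genes called higher and 0 lower in STZ, SD vs. Con, SD, beside 5.82% and 4.52% of all genes. Its median difference was 0.37. The list mean was 9.53 to 9.81 in Con, SD, against 9.32 to 10.55 in STZ, SD and 9.76 to 10.38 in STZ, BEZ. In all 11 of 14 were above 0, and 6 had an unadjusted p under 0.05, beside 20.3% of all genes. Fkbp5 (0.33, adjusted p = 0.693), Per1 (0.42, adjusted p = 0.474), Zbtb16 (0.13, adjusted p = 0.883) and Tsc22d3 (-0.09, adjusted p = 0.859) were not called. The 3 called genes were Pdk4, which restrains glucose oxidation (0.95 ± 0.29, adjusted p = 0.0653), Errfi1, an inhibitor of EGF receptors (0.61 ± 0.20, adjusted p = 0.0853), and Ddit4, an inhibitor of mTOR (0.64 ± 0.22, adjusted p = 0.0912). Their calls were lost with 5, 9 and 12 of the 18 arrays left out in turn, at adjusted p of up to 0.155, 0.187 and 0.208. In 16 immediate early genes, which respond within minutes to stress such as tissue collection, 1 was called higher and 0 lower with a median of 0.02. The share of all genes called higher was 5.82%. The called immediate early gene was Myc (1.08 ± 0.25, adjusted p = 0.0207). Of the 14 glucocorticoid-induced genes 2 were called higher in STZ, BEZ vs. Con, SD, beside 4.57% of all genes. They were Pdk4 (2.10 ± 0.31, adjusted p = 0.00305), a PPAR target too, and Klf9 (0.70 ± 0.21, adjusted p = 0.0805, up to 0.225 with an array left out). What part glucocorticoids, neutrophils or tissue collection had in the rise of Nfkbia was not tested.

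**Figure D4:**
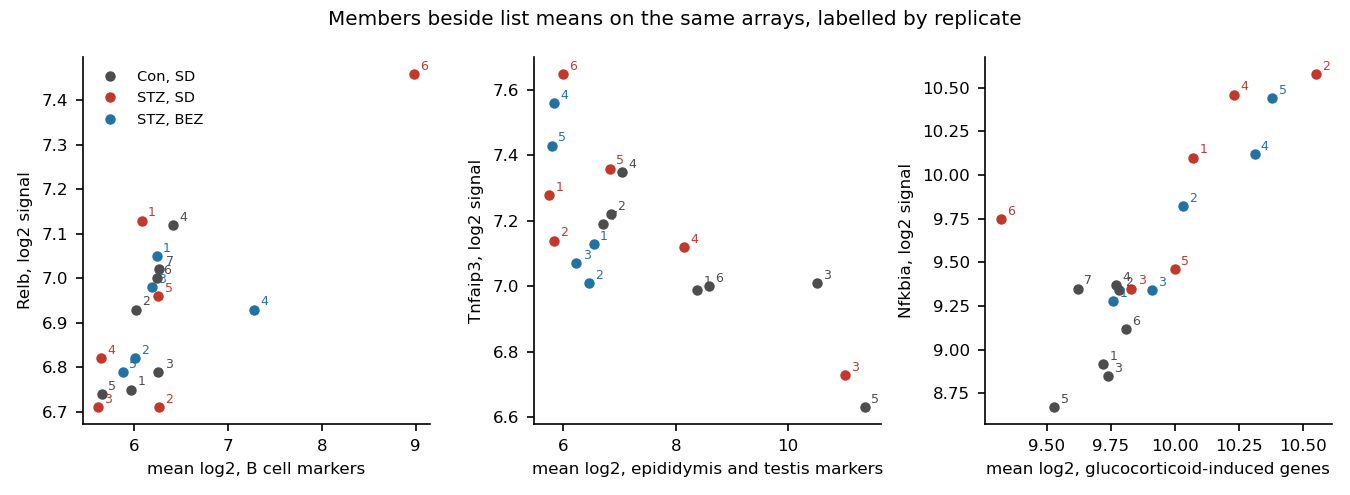
Log2 signal of Relb, Tnfaip3 and Nfkbia (vertical axes) against the mean log2 signal of B cell markers, of epididymis and testis markers and of glucocorticoid-induced genes (horizontal axes), with 1 point per mouse coloured by group and numbered by replicate. STZ, SD replicate 6 stands at the right of the first panel (8.98) and lies left of the other points in the third (9.32). In the second, Con, SD replicate 5 and STZ, SD replicate 3 are low and at the right. Con, SD replicate 3 is at the right too (10.52), with Tnfaip3 at 7.01.

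The 3 genes most like Nfkbia over the 18 arrays within groups were Snora52 (r = 0.92), a small nucleolar RNA, Igfbp3 (0.91), a carrier of insulin-like growth factors, and Elane (0.89), the neutrophil elastase, which is also in the neutrophil list. Snora52 rose by 0.82 in STZ, SD vs. Con, SD (adjusted p = 0.00551) and by 0.75 in STZ, BEZ vs. Con, SD (adjusted p = 0.0108). Igfbp3 was higher by 1.21 in STZ, SD (adjusted p = 0.0905) and Elane by 0.59 (adjusted p = 0.0826), and both calls were lost with 11 or more of the 18 arrays left out in turn, up to adjusted p of 0.212 and 0.19.

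The rest of the pathway was followed in 97 measured genes of 105 listed. In STZ, SD vs. Con, SD 10 of them were called higher and 5 lower, 15.5% in all beside 10.3% of all genes, with a median difference of 0.00. In STZ, BEZ vs. STZ, SD 0 of 97 were called in limma, beside 0.707% of all genes, and 10 had an unadjusted p under 0.05, beside 10.2% of all genes. For STZ, BEZ vs. Con, SD 4 were called higher and 0 lower, or 4.12% beside 5.95% of all genes. Single arrays moved these counts: in STZ, SD vs. Con, SD 17 genes were called higher without STZ, SD replicate 3 or 6 and 6 without replicate 2 or 4, while 2 were called lower without STZ, SD replicate 2 or 4 or Con, SD replicate 2, 4 or 7, and 3 without Con, SD replicate 6. In STZ, BEZ vs. Con, SD the count of genes called higher ranged from 0 without STZ, BEZ replicate 2 to 9 without STZ, SD replicate 3, and 11 of the 18 arrays moved it by over 1.5 times. Of the 14 called genes that the naming rule gave for STZ, SD vs. Con, SD, 6 kept their call with every array left out, 3 lost it with 1 or 2 of the 18 arrays left out and 5 lost it with 3 to 15.

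The IkB and Rel genes, 7 measured, held 1 call in STZ, SD vs. Con, SD, beside 10.3% of all genes. Nfkbiz, an inducible nuclear IkB protein that works as a cofactor of p50, rose from 7.22 to 7.66 on average in STZ, SD (0.44 ± 0.08, adjusted p = 0.0109). The main subunit Rela differed by -0.10 (adjusted p = 0.572). In STZ, BEZ Nfkbiz lay below STZ, SD by -0.24 (adjusted p = 0.352). Among adaptors and kinases, 19 measured, 4 were called higher and 1 lower in STZ, SD vs. Con, SD, beside 5.82% and 4.52% of all genes. Tbk1, a kinase next to IKK, rose by 0.25 ± 0.06 (adjusted p = 0.0233). Traf6, the ubiquitin ligase below the interleukin-1 receptor, rose by 0.28 ± 0.08 (adjusted p = 0.0509), a call that ended without Con, SD replicate 6 (0.26, adjusted p = 0.102). Map3k14, the kinase NIK that starts the processing of p100, rose by 0.20 ± 0.06 (adjusted p = 0.0514), a call that ended without STZ, SD replicate 2 (0.20, adjusted p = 0.104) or 4 (0.18, adjusted p = 0.124). Tab1, a partner of the kinase TAK1, rose by 0.22 ± 0.07 (adjusted p = 0.0608, up to 0.123 with an array left out). The gene called lower was Irak2, a kinase of the interleukin-1 receptor (-0.53 ± 0.17, adjusted p = 0.0686), and its call was lost with 6 of the 18 arrays left out, at adjusted p of up to 0.162. Ikbkb, the main IKK kinase, differed by 0.12 (adjusted p = 0.398).

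The other feedback inhibitors, 17 genes, had 2 called in each direction, beside 5.82% of all genes called higher and 4.52% lower. At an unadjusted p under 0.05 there were 8 of 17, beside 20.3% of all genes. Birc2, a ubiquitin ligase that degrades NIK, rose by 0.55 ± 0.12 (adjusted p = 0.0158). Rnf11, a partner of A20, fell by 0.83 on the log2 scale (SE 0.17, adjusted p = 0.0136). Cyld, a deubiquitinase that limits IKK activation, rose by 0.29 ± 0.08 (adjusted p = 0.0472), a call that ended without STZ, SD replicate 4 (0.27, adjusted p = 0.108). Tnip3, which binds A20, was called lower (-0.81 ± 0.26, adjusted p = 0.0774), a call lost with 8 of the 18 arrays left out, at adjusted p of up to 0.157. Birc2 differed by -0.45 between STZ, BEZ and STZ, SD (adjusted p = 0.196). Inhibitors thus stood among the genes called higher and among those called lower.

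In the STAT3 branch, 20 genes, 2 were called higher and 0 lower in STZ, SD vs. Con, SD, beside 5.82% and 4.52% of all genes. Socs2, a target of growth hormone and STAT5 and the inhibitor of that signal, rose by 0.94 ± 0.21 (adjusted p = 0.0176) in STZ, SD vs. Con, SD. In STZ, BEZ it was higher than Con, SD by 0.80 ± 0.22 (adjusted p = 0.0554), a call that ended without STZ, BEZ replicate 2 (0.75, adjusted p = 0.161), 4 (0.70, adjusted p = 0.144) or 5 (0.79, adjusted p = 0.141). Stat3 itself differed by 0.24 (adjusted p = 0.282) and Saa3, an acute-phase protein of fat, by -0.28 (adjusted p = 0.76) between STZ, SD and Con, SD. Both genes called in this list, Socs2 and Cish (0.85 ± 0.27, adjusted p = 0.0726, up to 0.152 with an array left out), are best known as targets of STAT5 and not of STAT3.

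The 17 cytokine and receptor genes held 1 call in each direction, Tnfsf13b (BAFF, a B cell survival factor, 0.48 ± 0.16, adjusted p = 0.0905) and Ltbr (the lymphotoxin-beta receptor, which activates the non-canonical branch, -0.37 ± 0.12, adjusted p = 0.0728). Both calls were lost with some arrays left out, at adjusted p of up to 0.193 and 0.175. Of all genes 5.82% were called higher and 4.52% lower. The receptor Tnfrsf1a differed by -0.26 (adjusted p = 0.501) and the antagonist Il1rn by -0.17 (adjusted p = 0.46). Of 17 adhesion molecules and their integrins 0 were called higher and 1 lower, beside the same shares of all genes. This was Vcan, a matrix proteoglycan that binds selectins, which fell by 0.96 on the log2 scale (SE 0.25, adjusted p = 0.0361). In this list 5 genes were above 0 and 12 below (median -0.09). E-selectin (Sele) differed by -0.02 (adjusted p = 0.927). Of the integrin subunits, the leukocyte partners of Vcam1 and Icam1, Itga4 and Itgal differed by 0.15 (adjusted p = 0.809) and 0.21 (adjusted p = 0.631). The subunits Itgb1, Itgb2 and Itgam differed by -0.26, -0.32 and -0.70 (adjusted p of 0.271, 0.496 and 0.127). Macrophage markers, 13 genes, averaged 8.59 to 9.51 in Con, SD, against 8.40 to 9.25 in STZ, SD and 8.99 to 9.40 in STZ, BEZ. Of these, 0 genes were called in any of the 3 comparisons (1, 2 and 1 at an unadjusted p under 0.05). In STZ, SD vs. Con, SD 11 of 13 were below 0 (median -0.18). In STZ, BEZ 12 of 13 were above STZ, SD (median 0.31) and 9 of 13 above Con, SD (median 0.09). Fibroblast and progenitor markers, 9 genes, averaged 9.87 to 10.46 in Con, SD. They averaged 9.39 to 10.39 in STZ, SD and 9.85 to 10.02 in STZ, BEZ. In STZ, SD vs. Con, SD 0 were called higher and 3 lower, beside 5.82% and 4.52% of all genes. In STZ, BEZ vs. Con, SD 0 were called higher and 1 lower, beside 4.57% and 1.38%. In STZ, BEZ vs. STZ, SD 0 were called, beside 0.707%. The part of these cells was not tested.

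**Figure D5:**
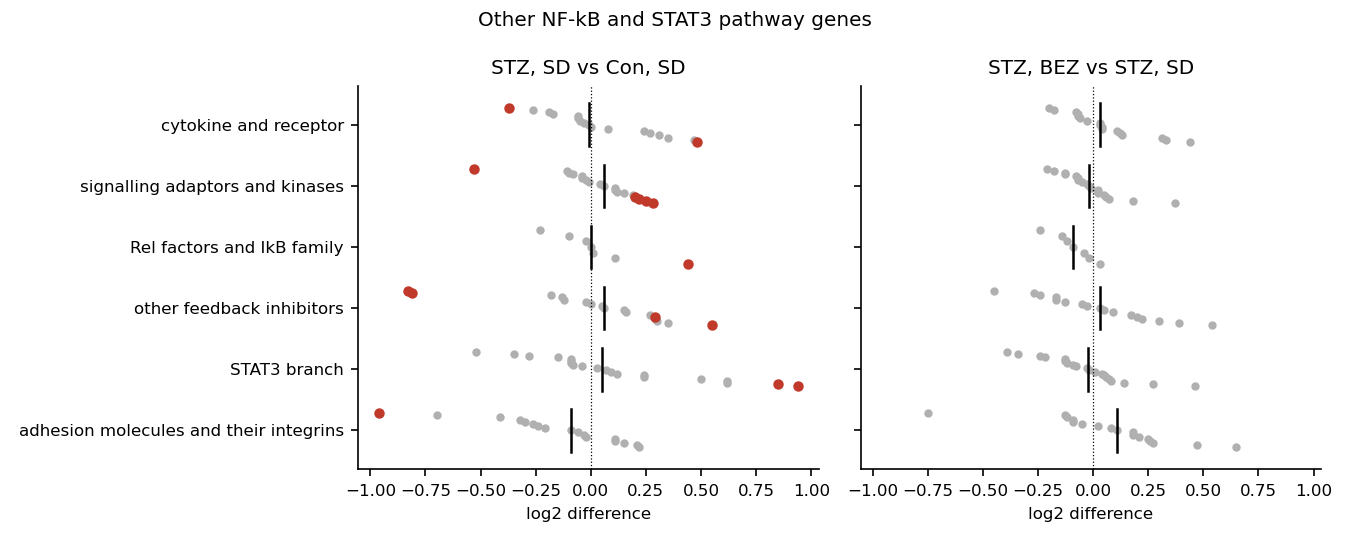
Difference in mean log2 signal (horizontal axis) for 97 genes in 6 lists around the members, with 1 point per gene, red for an adjusted p under 0.10, a black bar at the median of each list and a dotted line at 0. In STZ, SD vs. Con, SD 15 points are red, on both sides of 0, and in STZ, BEZ vs. STZ, SD none is.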

How the data were processed

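RNA of visceral fat from 18 mice (1 array each) had been hybridised to Affymetrix arrays (Mouse Gene 1.0 ST). The deposited values are log2 signals that the authors made by RMA in Affymetrix Expression Console 1.2, per the submitters' processing notes, and the genome build of the probe sets is not given in the sources used here. RMA shrinks differences of dim genes, and no detection call is given. The table holds 35556 probe sets, of which 21789 carry 1 symbol, 1621 more than that, and 12146 are unnamed here. Each symbol was represented by its brightest probe set on average (19938 genes, all members included, with no filter on low values).

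Groups came from the labels. All 3 groups were fitted together with limma 3.58.1 in R 4.3.3 (15 residual and 2.44 prior degrees of freedom), Benjamini-Hochberg adjustment ran over all genes, and the threshold was an adjusted p of 0.10, after the 10% false discovery rate of the study. The fit was tested on simulated data. The members, the lists and the tests were chosen with earlier results of these data known. Other genes were named by a rule: up to 4 called genes of each list by smallest p, or 2 where none was called, and the 3 genes most correlated with a called member. Some genes were chosen after their values were seen. These were Tnfrsf1a, Il1rn, Ikbkb, Rela, Stat3, Saa3, Sele, Itga4, Itgal, Itgb1, Itgb2, Itgam, Fkbp5, Per1, Zbtb16 and Tsc22d3, named for their role in STZ, SD vs. Con, SD. Irak2, the only called gene of its list outside the rule, was another.

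Alternatives were an adjusted p of 0.05, SAM with 100 permutations, all probe sets, the mean of a gene's probe sets, genes above the median signal, quantile normalization, array medians set to 0, array weights, robust fitting with a variance trend, only the 2 groups compared, the replicate number as a block, and each array left out in turn. Fits with list means as covariates or without the arrays whose pancreas mean was above 7 were chosen after seeing the data. Nothing says that replicates with the same number were paired. Precision is limited by the number of arrays.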

Additional observations from a re-analysis of the deposited data

Results flagged for a closer look

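Among the 147 groups of 5 to 7 arrays searched, 7 held a value far from the rest of its group by Dixon's criterion, where chance gives about 1 in 20, and 0 of the 30 groups of the 10 members did. Tnfsf13b was 6.59 in Con, SD replicate 5, against 7.21 to 7.39 in the other Con, SD arrays. Elane was 6.15 on the same array, against 6.46 to 6.67. Nfkbid, a nuclear IkB protein, was 6.67 in STZ, SD replicate 6, against 5.86 to 6.10. Birc2 was 7.72 in STZ, BEZ replicate 4, against 8.11 to 8.23. Tnip3, an A20-binding protein, was 6.61 in STZ, BEZ replicate 3, against 5.49 to 5.72. Jak2 was 9.26 in Con, SD replicate 1, against 8.60 to 8.86. Mt2, a metallothionein, was 12.40 in Con, SD replicate 6, against 12.61 to 12.71.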

How the results depend on the processing

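The rise of Nfkbia in STZ, SD vs. Con, SD kept its direction and call in all fits run. Of the 10 members, 1 to 3 were called in that comparison with each array left out, 0 in STZ, BEZ vs. STZ, SD, and 0 to 1 in STZ, BEZ vs. Con, SD. In STZ, SD vs. Con, SD 2 were called among genes above the median signal (Vcam1 also, adjusted p = 0.0951) and 2 with covariates for pancreas and epididymis (Tnf also, -0.48, adjusted p = 0.00877). In STZ, BEZ vs. Con, SD 1 was called by SAM, among genes above the median signal and with only the 2 groups compared (Nfkbia each time), and 3 with those covariates (Nfkbia 0.62, Tnf -0.61, Relb -0.30). With the covariates 1 was called in STZ, BEZ vs. STZ, SD (Icam1 -0.31, adjusted p = 0.0766). The pancreas mean was high in STZ, BEZ replicates 1 to 4, in STZ, SD replicate 6 and in no Con, SD array. The covariate fits of STZ, BEZ can thus hardly tell this signal apart from the group. Whether the replicate number pairs arrays is not stated, and residual r of same-numbered arrays was -0.36 to 0.70. The 0.70 was for replicate 3 of Con, SD and STZ, SD, both high in epididymis and testis genes, so that these values cannot decide the pairing. With the number as a replicate block, 2 members were called in STZ, SD vs. Con, SD (Nfkbia, adjusted p = 0.0723, and Vcam1, 0.67, adjusted p = 0.0765), 680 genes in all against 2063 without it. Of 23 genes named here and called in STZ, SD vs. Con, SD, 16 lost their call with the block and 7 kept it (Nfkbia, Nfkbiz, Tbk1, Rnf11, Socs2, Myc and Snora52), and of 9 in STZ, BEZ vs. Con, SD 5 lost it. Over the alternatives that tested all 19938 genes, the genes called ranged from 680 to 3872 in STZ, SD vs. Con, SD (4264 probe sets when all 35556 were tested), from 2 to 2497 in STZ, BEZ vs. STZ, SD (141 as reported), and from 279 to 4105 in STZ, BEZ vs. Con, SD (1187 as reported). Pathway genes called in STZ, SD vs. Con, SD ranged from 3 to 20 higher and 1 to 12 lower, in STZ, BEZ vs. STZ, SD from 0 to 4 and 0 to 12, and in STZ, BEZ vs. Con, SD from 0 to 14 and 0 to 17.

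Small differences changed sign, and the cause was not tested. In STZ, SD vs. Con, SD Il6 was -0.01 with array medians set to 0, -0.02 with array weights and -0.02 with the pancreas and epididymis covariates, and with arrays left out it was -0.02 to 0.05. Relb there was -0.02 with array weights, -0.08 with the covariates, -0.04 without the arrays of high pancreas signal, and -0.04 to 0.11 with arrays left out. With the covariates Tnfaip3 was -0.01 and Socs3 -0.02. In STZ, BEZ vs. STZ, SD array weights gave Tnfaip3 -0.03, Relb 0.00, Socs3 -0.01, Egr1 -0.02 and Elane -0.02. The replicate block gave Relb 0.01, and the pancreas and epididymis covariates gave Tnf -0.13, Tnfaip3 -0.13, Nfkb2 -0.09 and Socs3 -0.08. Without the arrays of high pancreas signal, which leaves 1 STZ, BEZ array, Tnf was -0.22, Nfkbia 0.45, Nfkbid 0.05, Nr4a1 -0.03, Snora52 0.22 and Igfbp3 0.25. With the white adipocyte mean as covariate Relb was 0.02, Tnfrsf1a -0.05, Esam -0.05, Egr1 -0.03 and Elane -0.08. With arrays left out this comparison gave Tnf -0.03 to 0.17, Tnfaip3 -0.07 to 0.12, Nfkb2 0.00 to 0.15, Relb -0.10 to 0.05, Socs3 -0.04 to 0.11, Snora52 -0.17 to 0.00 and Elane -0.02 to 0.26. In STZ, BEZ vs. Con, SD array weights gave Relb -0.02 and Icam1 -0.01, and the replicate block gave Nfkb2 0.07. The covariates for pancreas and epididymis gave Tnfaip3 -0.14, Relb -0.30, Icam1 -0.19, Vcam1 -0.22 and Socs3 -0.10 there. Relb was -0.12 without the arrays of high pancreas signal, Nfkb2 was 0.03 with the white adipocyte covariate, and with arrays left out Nfkb2 was -0.05 to 0.03, Relb -0.03 to 0.04 and Icam1 -0.02 to 0.08.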
